A study of Mus musculus with 9 samples.

Results

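The miR-30, miR-26 and miR-101 families were followed in mouse embryonic stem (ES) cells without Dgcr8 and in the fibroblasts they were grown on. Their probes were picked by name from the microRNA array, as those of miR-30a to miR-30e, miR-26a, miR-26b, miR-101 and miR-101b, and 5 of the 206 probes met this rule. These were miR30a-5p, miR30a-3p and miR30b of the miR-30 family, miR26a-1 of the miR-26 family and miR101-1 of the miR-101 family. No other probe name met the rule. The 4 probes other than miR30a-3p carried values and passed the filter on missing values. MiR-30a-3p, the other arm of the miR-30a hairpin, had no value on any of the 9 arrays.

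Each of the 9 arrays carried small RNA of 1 group in 1 channel and small RNA of wild-type V6.5 ES cells in the other. The groups were DGCR8 homozygous knockout line 1 (2 arrays), DGCR8 homozygous knockout line 2 (2 arrays), DGCR8 heterozygous knockout V6.5 ES cells (3 arrays) and irradiated mice embryonic fibroblast feeder cells (2 arrays). Wild-type RNA was present only as the second channel. The ES cells had been kept on feeders and taken off them before RNA was collected, per the series text, and the arrays of each knockout line were duplicate hybridisations. The heterozygous RNA came from 2 preparations, and nothing names separate feeder cultures. The p-values of those groups use an error shared by all groups. It came from the gap between the 2 line means and the spread among heterozygous arrays, part of which may be technical. The feeder arrays were averaged, so the spread between them is not covered. Every ratio below is on the log2 scale, with the RNA of the named group on top and wild-type RNA beneath. This direction is the likely one, taken from the series text, and the level was set by added control RNAs. Spot intensities were not used here, so it is not known how far each channel stood above background, and a low ratio may be only a bound. The number of arrays limits the precision.

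MicroRNAs are made from hairpins that DGCR8 and the nuclease Drosha cut out of longer transcripts, after which Dicer releases the mature strand. The seed at the 5′ end of the mature strand pairs with target messenger RNAs and defines a family. MiR-30, miR-26 and miR-101 accumulate in many differentiated tissues. MiR-26a and miR-101 repress Ezh2, the methyltransferase of Polycomb repressive complex 2, and members of the miR-30 family act in differentiation and on the epithelial to mesenchymal switch.

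The mature strands are shown because the seed, in capitals (bases 2 to 8), groups the probed microRNAs with relatives that had no probe. They are RefSeq sequences of build GRCm38.p6, written 5′ to 3′, and 8 of the 10 names looked up were matched.
miR-30a-5p: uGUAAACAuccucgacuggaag
miR-30c-5p: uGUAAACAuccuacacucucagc
miR-30e-5p: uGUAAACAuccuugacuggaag
miR-30a-3p: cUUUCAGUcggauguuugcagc
miR-26a-5p: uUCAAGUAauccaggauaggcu
miR-26b-5p: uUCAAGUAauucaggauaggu
miR-101a-3p: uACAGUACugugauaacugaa
miR-101b-3p: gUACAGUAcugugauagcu

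MiR-30a-5p, miR-30c-5p and miR-30e-5p share the seed GUAAACA, and miR-30b is named here without its sequence. MiR-384-5p carries the same seed, and the probe named miR384 had no value on any array. MiR-30e-5p is identical to miR-30a-5p at 21 of 22 positions and differs by C13U, counted from the 5′ end of miR-30a-5p. MiR-30c-5p is identical to it at 17 of 22. MiR-26b-5p matches miR-26a-5p at 19 of 21 positions, with C11U and C21U. As annotated, miR-101b-3p starts 1 base upstream of the start of miR-101a-3p, which shifts its bases 2 to 8, and over the 18 shared positions it differs by A16G, counted in miR-101a-3p. Probe sequences were not used here, so how far a probe also bound such relatives was not tested.

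The mature miR-30a-5p lies at chr1:23272274-23272295 on the plus strand, and Mir30c-2 is the microRNA gene nearest to Mir30a. MiR-26a-5p has 2 genes that give the same mature strand, Mir26a-1 at chr9:119031811-119031832 within Ctdspl and Mir26a-2 at chr10:126995543-126995564 within Ctdsp2, both on the plus strand. The name of probe miR26a-1 points to the first, but a mature strand cannot be assigned to either. MiR-101a-3p lies at chr4:101346957-101346977 on the minus strand, within E130102H24Rik. The names of probes miR26a-1 and miR101-1 give no arm, and the strands shown are those long called miR-26a and miR-101. Mir30b, whose nearest microRNA gene is Mir30d, lies on chromosome 15.

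Knockout cells were set against wild type to ask how much of each microRNA remained without DGCR8. All 4 measured family microRNAs fell in the knockout, to between 0.844% and 2.12% of the wild-type level (limma, adjusted p from 4.45e-07 to 4.14e-06). Lower calls were made for 89.7% of the 87 tested probes and higher calls for 2.3%, so this count is near the background. The median log2 ratio of the 4 was -5.89, beside -5.98 for all 87.

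MiR-30a-5p had log2 ratios of -6.28 and -6.18 in knockout line 1 and -5.88 and -5.86 in knockout line 2, against 0.25, 0.24 and 0.38 in heterozygous cells. The 4 knockout arrays lay close together and far from every heterozygous array. Its knockout mean was -6.05 ± 0.25 (SD, n = 2 lines), or 66.3-fold below wild type, with a 95% interval of 1.08% to 2.10% of the wild-type level.

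MiR-30b had -6.44 and -7.00 in knockout line 1 and -5.34 and -8.77 in knockout line 2, against 0.19 and 0.15 on heterozygous replicates 2 and 3, with no value on replicate 1. Knockout line 2 held both its highest and its lowest knockout value, 10.7-fold apart, while the means of the lines were 0.33 apart. Its mean of -6.89 ± 0.23 (SD, n = 2 lines), or 119-fold below wild type, was the lowest of the 4 with all arrays in. Replicate 2 of line 2 decided this place: without it the mean was -6.03, beside -6.06 for miR-30a-5p, and without replicate 1 of line 2 it was -7.74. The SD over lines does not hold the spread between duplicate arrays: over the 4 knockout arrays it was 1.43. With all 9 arrays as single values the 95% interval widened to 0.402% to 1.77% of wild type, from 0.581% to 1.23% with line means.

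MiR-26a, which represses Ezh2, had -4.98 and -5.57 in knockout line 1 and -5.45 and -6.24 in knockout line 2, against 0.041, 0.082 and 0.69 in heterozygous cells. Its mean of -5.56 ± 0.40 (SD, n = 2 lines), or 47.3-fold below wild type, was the highest of the 4, but without replicate 2 of line 2 it was -5.37, below the -5.31 of miR-101. MiR-101, the other microRNA that acts on Ezh2, had -5.83 and -6.17 in knockout line 1 and -4.62 and -6.28 in knockout line 2, against -0.19, -0.44 and 0.66 in heterozygous cells. Its mean was -5.72 ± 0.39 (SD, n = 2 lines), or 52.8-fold below wild type. For each of the 4 microRNAs no knockout array overlapped a heterozygous or feeder array, which was not counted over all probes. Of the 87 tested probes 90.8% were called lower against heterozygous cells and 75.9% against feeders. Such calls are a different measure from overlap, and the separation is not taken to set the 4 apart. The differences among the 4 microRNAs in depth of loss were not tested.

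**Figure D1:**
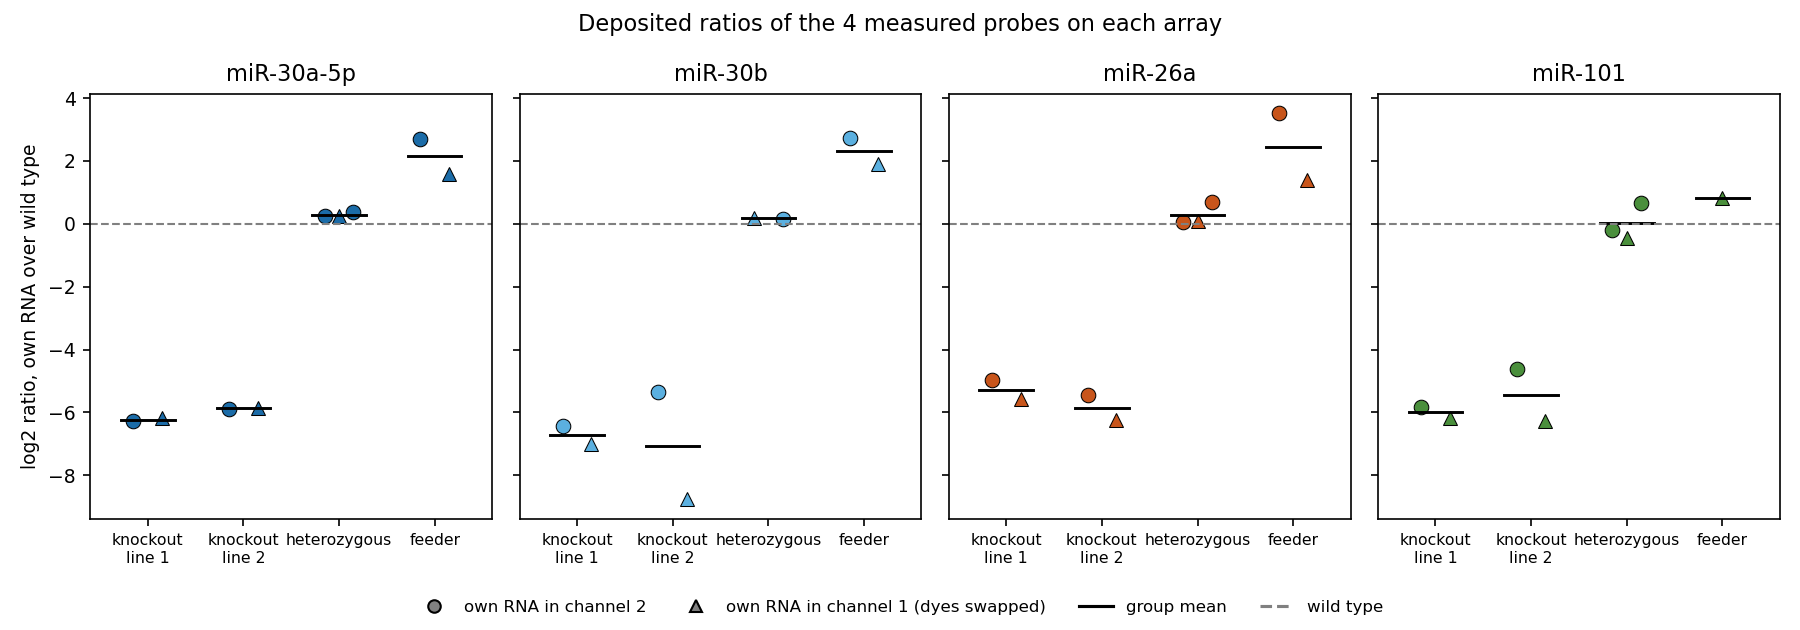
Log2 ratios over wild type (vertical axis) of the 4 measured probes in each group (horizontal axis). Each point is 1 array, circles have own RNA in channel 2 and triangles in channel 1, black bars are group means and the dashed line is wild type. All knockout arrays lie between -8.77 and -4.62, and the 2 arrays of knockout line 2 stand furthest apart for miR-30b.

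Duplicate arrays differed by 0.10 (miR-30a-5p) to 0.59 (miR-26a) log2 units in line 1, where the median gap over 91 mouse probes was 0.49. In line 2 the gaps were 0.02 for miR-30a-5p, 0.79 for miR-26a, 1.66 for miR-101 and 3.42 for miR-30b, and the median over 97 probes was 0.75. Counting miR-30b itself, 3 of those 97 probes had a gap as large as its own. In line 2 the probes as a whole were higher on replicate 1 than on the dye-swapped replicate 2, by a median of 0.72. MiR-30a-5p did not follow that shift, whereas miR-101 and miR-30b differed the same way by more.

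Within the range of the 87 tested probes, counted from the lowest knockout ratio, miR-30b stood at place 24, miR-30a-5p at 42, miR-101 at 49 and miR-26a at 52. In the mir-290 cluster, the microRNAs that dominate mouse ES cells, all 8 tested members were lower, with a median of -7.52. Of 15 probes of other microRNAs reported to act on Ezh2 (let-7 family members, miR-98, miR-124a, miR-137, miR-138, miR-214 and miR-217), 6 were tested, of which 2 were lower and 4 did not pass. Their median was -0.40, with miR-124a lowest at -6.24 and let-7f highest at 0.48, whereas miR-26a and miR-101 lay at -5.56 and -5.72.

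The lines were then compared with each other. Each line's arrays repeat the hybridisation of the same line, so these p-values and intervals cover hybridisation noise only and set no bound on how separate cultures of the lines differ. None of the 4 microRNAs passed the test between knockout line 2 and knockout line 1 (limma, all 9 arrays as single values, adjusted p from 0.725 to 0.913), and none had an unadjusted p under 0.05. Of the 87 probes 0.0% were called lower and 0.0% higher, and 13 had an unadjusted p under 0.05. The difference, line 2 over line 1, was 0.55 for miR-101 (95% interval -0.92 to 2.02) and 0.36 for miR-30a-5p (-0.72 to 1.44). It was -0.33 for miR-30b (-2.47 to 1.81) and -0.57 for miR-26a (-2.11 to 0.97). The interval of miR-30b holds a 2-fold difference in either direction. The other 3 intervals hold it in 1 direction. The 8 tested fibroblast microRNAs had a median of -1.23 in this comparison, against 0.29 for all 87, none of them called, and their part in the value of miR-26a was not tested.

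Heterozygous cells were compared with wild type to ask whether the families change when 1 copy is lost. None of the 4 microRNAs was called changed (limma, adjusted p from 0.702 to 0.997, lowest unadjusted p 0.119), as 0.0% of the 87 probes were called lower and 0.0% higher, and 7 of the 87 had an unadjusted p under 0.05. MiR-30a-5p averaged 0.29 ± 0.08 (SD, n = 3 arrays), and all 3 arrays were above 0. Its 95% interval ran from -0.10 to 0.68, or 93.2% to 160% of wild type. MiR-30b averaged 0.17 ± 0.03 (SD, n = 2 arrays; interval -0.37 to 0.71) and miR-26a 0.27 ± 0.37 (SD, n = 3 arrays; interval -0.25 to 0.79). MiR-101 averaged 0.0090 ± 0.58 (SD, n = 3 arrays; interval -0.63 to 0.65), below 0 on replicates 1 and 2 and above 0 on replicate 3. A change of 2-fold in either direction lay outside all 4 intervals. With all 9 arrays as single values the interval of miR-30b widened to 39.5% to 321% of wild type and no longer left such a change out, nor did that of miR-26a on the upper side (223%). The median of the 4 was 0.22, against -0.05 for all tested probes.

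Set against heterozygous cells, where the wild-type RNA cancels, all 4 were lower in the knockout (limma, adjusted p from 1.7e-06 to 1.83e-05), as were 90.8% of the 87 probes, with 2.3% higher. The differences were -7.06 for miR-30b, -6.34 for miR-30a-5p, -5.84 for miR-26a and -5.73 for miR-101.

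Feeder fibroblasts were profiled because they may remain among the ES cells. Of the 4 microRNAs, miR-30a-5p, miR-30b and miR-26a were higher in feeders than in wild-type ES cells, by 4.41-fold to 5.49-fold, and miR-101 did not pass the test. Higher calls were made for 36.8% of the 87 probes and lower calls for as many. The median of the 4 was 2.22, beside 0.15 for all 87. The 2 feeder arrays entered the test as their mean, and the knockout and heterozygous values supplied its error.

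MiR-26a had 3.53 and 1.38 on feeder replicates 1 and 2, with a mean of 2.46 ± 1.52 (SD, n = 2 arrays; limma adjusted p = 0.00148). MiR-30b had 2.72 and 1.89, with a mean of 2.30 ± 0.59 (SD, n = 2 arrays; limma adjusted p = 0.00148). MiR-30a-5p had 2.69 and 1.60, with a mean of 2.14 ± 0.77 (SD, n = 2 arrays; limma adjusted p = 0.000799). For these 3 microRNAs replicate 1 was the higher array, by 2.15, 0.84 and 1.09, where the median of 90 mouse probes was 0.69 higher on replicate 1. The lower feeder array of each still exceeded every heterozygous array. How many of all 87 probes separate in this way was not counted, and the 36.8% called higher in feeders is a different measure. Whether this separation sets the 3 microRNAs apart is therefore not known. The call of miR-30b was lost without replicate 1 of knockout line 2, which leaves its feeder ratio as it is and enters only through the shared spread (adjusted p = 0.056).

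MiR-101 had a value on feeder replicate 2 only, 0.80, which lay above its 3 heterozygous arrays (adjusted p = 0.152, 95% interval 81.3% to 375% of wild type). That interval overlaps those of the miR-30 and miR-26a probes, and the difference between miR-101 and the other 3 in feeders was not tested.

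For miR-30a-5p, miR-30b and miR-26a the order of mean levels was thus knockout lowest, then wild-type, heterozygous and feeder cells. The step between heterozygous and wild-type cells did not pass the test for any of these microRNAs (limma, adjusted p from 0.702 to 0.887). That part of the order is not established. For miR-101 the knockout was lowest, and the single feeder array, which has no spread of its own, was highest.

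**Figure D2:**
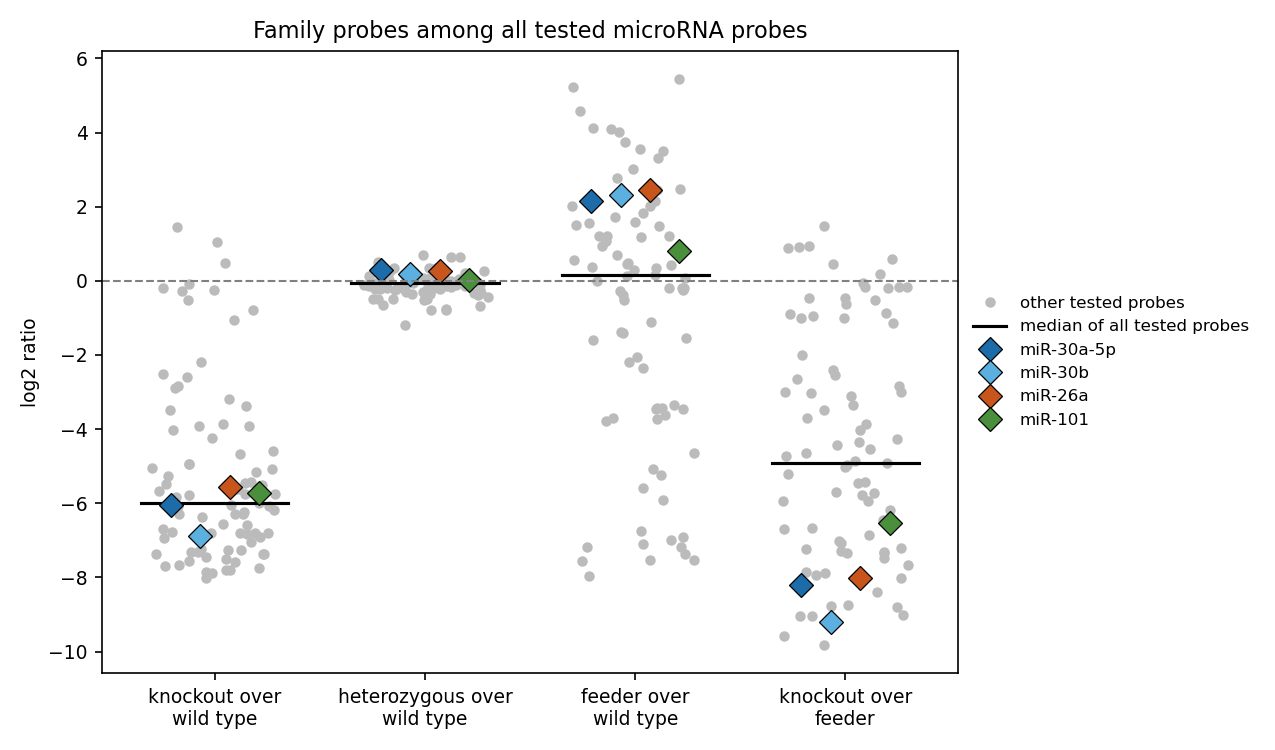
Log2 ratios (vertical axis) of the 4 family probes (diamonds) and the other 83 tested probes (grey points) in 4 comparisons (horizontal axis), with the median of all 87 as a bar. The family probes lie at -6.89 to -5.56 in the knockout, near the median of -5.98, and at 0.80 to 2.46 in feeders, above the median of 0.15.

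Knockout cells were finally set against feeders, to show how much of the feeder level each microRNA had in cells that may carry feeder RNA. All 4 were lower in the knockout (limma, adjusted p from 9.59e-06 to 6.33e-05), as were 75.9% of the 87 probes, with 1.15% higher. Knockout RNA held 0.171% of the feeder level of miR-30b (95% interval 0.0895% to 0.326%), 0.342% of that of miR-30a-5p, 0.386% of that of miR-26a and 1.08% of that of miR-101. The feeder level of miR-101 is that of replicate 2 alone, the array that read lower for most probes, and its interval, 0.425% to 2.77%, takes its error from the other groups. The median log2 difference of the 4 was -8.11, against -4.92 for all 87. With all arrays in, miR-30b stood at place 3 of the 87 from the lowest, which was not ranked again without replicate 2 of line 2. That array held its lowest knockout value (-8.77), and without it the knockout mean over wild type was -6.03 in place of -6.89. With all 9 arrays as single values the 95% interval of miR-30b widened to 0.0473% to 0.617% of the feeder level.

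Markers of the fibroblasts were looked at beside these values. All 17 probes of the fibroblast list had a value on some array and 8 were tested, of which 7 were higher in feeders and all 8 lower in the knockout than in wild type. Their knockout level was 0.19% to 0.977% of the feeder level, with a median of 0.263%, where the 4 family probes had 0.171% to 1.08% with a median of 0.364%. The untested markers, among them miR-199a, miR-214, miR-143 and miR-221, had too few values in ES cells and are not in these figures. For the other Ezh2-directed microRNAs the figure was 2.34% to 50.2%, with a median of 3.89%. The highest was that of miR-124a, which was itself lower in feeders than in wild-type cells (-5.24). The part of carried-over feeder RNA in the remaining signal was not tested. The mir-290 cluster, which marks ES cells, was lower in feeders than in wild-type cells for all 8 members (median -7.28), and none of the 8 passed the test between knockout cells and feeders.

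The 3 families were last compared with single probes measured on all 9 arrays, by the root mean square difference in log2 ratio. Closest to the mean of the miR-30 probes were miR-15a (0.68) and miR-16 (0.72), microRNAs that restrain the cell cycle, where the median over the 56 probes searched was 2.31. Closest to miR-26a were miR-24 (0.43) and miR-27a (0.61), which derive from a shared cluster and are both on the fibroblast list. Closest to miR-101, over 8 arrays, were miR-382 (0.45) of the imprinted Dlk1-Gtl2 region and miR-15a (0.49). Among the family probes themselves miR-26a and miR-101 were the closest pair (0.55 over 8 arrays), beside 0.61 over 9 arrays for miR-26a and miR-30a-5p. The pairs with miR-101 lack feeder replicate 1, so these distances do not cover the same arrays. MiR-26a and miR-30b were the furthest pair (1.21 over 8 arrays), and miR-30b differed most from each of the others on replicate 2 of line 2.

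All directions against wild type rest on the scale of the control RNAs. Centring each array on its median moved the median of the 87 knockout ratios by 5.64 and that of the feeder ratios by -1.19. Relative to that shift, miR-30b was lower in the knockout (-1.24, limma adjusted p = 0.0112). Its centred values were -0.29 and -1.43 in line 1 and -0.43 and -2.83 in line 2, so the arrays differed widely. The call was kept with all 9 arrays as single values (adjusted p = 0.0365), and lost without replicate 2 of line 2 (-0.65, adjusted p = 0.0527) or replicate 2 of line 1 (-0.96, adjusted p = 0.0635). After centring, miR-30a-5p (-0.41), miR-101 (-0.078) and miR-26a (0.082, with its sign turned) did not pass with all arrays in, although miR-30a-5p passed without replicate 1 of line 1 (-0.53, adjusted p = 0.0366) or replicate 2 of line 2 (-0.67, adjusted p = 0.0432). In feeders miR-26a (1.21, adjusted p = 0.0479) and miR-30a-5p (0.89, adjusted p = 0.0211) passed, and miR-30b (1.05, adjusted p = 0.0551) and miR-101 (-0.35) did not.

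**Figure D3:**
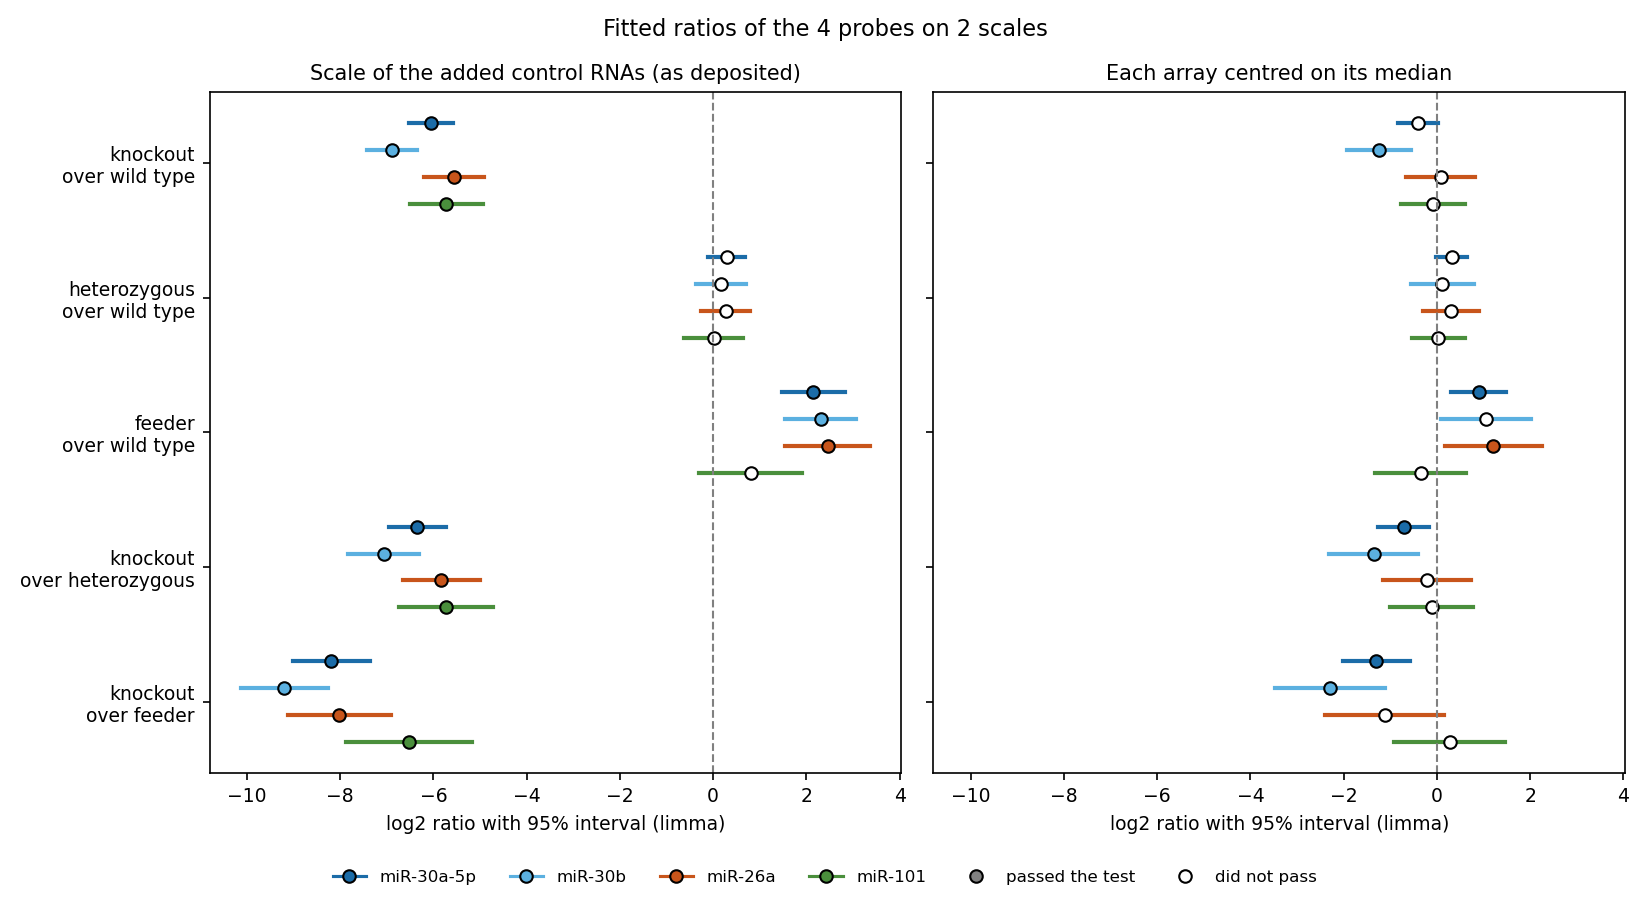
Fitted log2 ratios (horizontal axis) with 95% intervals of the 4 probes in 5 comparisons (vertical axis), on the deposited scale at the left and after centring each array at the right. Filled points passed the test at an adjusted p of 0.05. All knockout ratios lie far below 0 at the left, and at the right the knockout ratio to wild type is called only for miR-30b.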

How the data were processed

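Small RNA of 18 to 26 nt was cut from a gel, given equal amounts of positive control RNAs, tailed and hybridised with the NCode system, per the labels' protocols. The authors deposited ratios normalised on these control RNAs, per the series text. The deposited values were log10 ratios, a base found on replicate 2 of the first knockout line, where raising 10 to each of the 90 values below the log10 of 0.05 gave a number with 4 decimals, a match expected for 3.81% of values by chance. The other arrays do not show their base, and the same was assumed. Null cells and spreadsheet errors (2 cells on replicate 1 of knockout line 1 and 1 on feeder replicate 1) were treated as missing. Arrays of opposite dye agreed in orientation in the knockout lines and feeders (Pearson r of 0.912 to 0.962 across probes), and no 2 arrays were identical. Among heterozygous arrays r was 0.47, 0.33 and -0.05. The sources used here do not name the image software, the background correction or the rule for null cells.

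Values were multiplied by 3.3219 to give log2 ratios. Of 206 probes, 195 matched a mouse microRNA gene of RefSeq (GRCm38.p6). Arrays held 84 to 131 values in ES cells and 93 and 133 in feeders. The fit used limma 3.58.1 (R 4.3.3, statmod 1.5.0) on 6 values per probe, namely the mean of each knockout line, the heterozygous arrays singly and the feeder mean. Comparisons with wild type test a ratio against 0 and so hold no variation of wild type itself. Probes needed 2 heterozygous values, both lines and a feeder value, which left 87. The Benjamini-Hochberg adjustment ran over all 87, with a threshold of 0.05. The script was tested on simulated data. Every probe that the family rule finds was named, with the 2 most similar other probes per family and the lowest or highest members of the lists. The members and lists were chosen with earlier results of these data known.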

Additional observations from a re-analysis of the deposited data

How the results depend on the processing

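The 26 alternatives gave 454 values for single family microRNAs: 421 kept their direction and side of the threshold, 16 kept their sign and lost the call, and 17 changed sign, 8 of them losing a call. With each array centred, 1 family probe was lower in the knockout in place of 4, 2 of 4 in the knockout over heterozygous cells and 2 of 4 in the knockout over feeders. Over probes with values on all 9 arrays, 2 of 2 family probes were lower in each of these 3 comparisons, in place of 4, since fewer probes were tested. After centring the sign turned for miR-26a in the knockout over wild type (0.082), for miR-101 in feeders (-0.35) and in the knockout over feeders (0.27), and for miR-30a-5p between the lines (-0.084). Over all 87 probes, centring gave 33 lower and 25 higher in place of 78 and 2 in the knockout, 12 higher in place of 32 in feeders, and 10 lower and 49 higher in place of 66 and 1 in the knockout over feeders. The cause was not tested. In centred alternatives chosen after seeing the data, leaving out knockout arrays in turn, 0 to 2 family probes were lower, with miR-101 from -0.31 to 0.15 (0.080 without line 2 replicate 2) and miR-26a from -0.21 to 0.38 (0.14 and 0.022 without line 2 replicates 1 and 2). With arrays as single values 1 was lower and miR-26a was at 0.082.

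In heterozygous cells the sign of miR-101 turned with a dye term (-0.14), with the replicate block (-0.32), with replicates 1 and 3 (-0.10) or 2 and 3 averaged (-0.040), and without replicate 3 (range -0.32 to 0.24 over arrays left out). Between the lines it turned for miR-101 without replicate 1 of line 2 (range -0.28 to 1.38) and for miR-30b without replicate 2 of line 2 (range -2.04 to 1.38). None of these was called in either form. With 1 array left out at a time, the counts of family probes called were 3 to 4 where 4 were lower. In feeders they were 2 to 3 where 3 were higher, with 2 without heterozygous replicate 2 or 3 because miR-30b then had too few values, and without knockout line 2 replicate 1.

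The replicate numbers were not taken to pair the samples. Deviations of replicates 2 from replicates 1 correlated between groups with r from 0.04 to 0.39 across probes, 3 of the 6 over 0.1, and replicates 1 and 2 also differ in dye orientation. With the replicate block 4 of 4 family microRNAs were lower in the knockout and 3 of 4 higher in feeders, as without it. Over all 87 probes the block gave 78 lower in the knockout and 33 higher in feeders. With heterozygous cells in place of wild type, also chosen after seeing the data, 3 of 4 were higher in feeders, as were 29 of all 87 probes. How far background limits the knockout ratios is unknown without spot intensities.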
